A study of Mus musculus with 6 samples.

Results

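The p53 pathway and target genes are 37 mouse genes listed as regulators, relatives or targets of the transcription factor p53. Whether p53 itself drives any of them in these cultures was not tested. They were fixed by name, and 32 of the 37 had a row of the deposited table that named that gene alone, out of 14860 genes measured. The gene of p53 itself (Trp53), Gdf15 and Bax, and Ei24 and Rrm2b, which were listed only on rows shared with another gene, were not analysed here. RNA was measured on 6 Affymetrix arrays, with 3 ERK1/2 null and 3 ERK1/2 wild type cultures by title. Both groups were aortic endothelial cells by label, from 4 week old mice of strain C57/BL6 (5 generations), and by the genotype label both carried Erk1-/- and Erk2fl/fl, so that Erk1 was absent from the cultures called wild type too. All cultures grew in medium with 20% serum, heparin and an endothelial growth supplement (ECGS). The null cultures received a lentivirus for Cre recombinase (egfp-Cre by the genotype label of replicate 1 and Cre by that of replicates 2 and 3), and the wild type cultures a lentivirus for GFP. The groups therefore differ in the virus, Cre against GFP, as well as in the loss of Erk2 that the title ERK1/2 null implies. The genotype label itself does not state that loss. These cannot be told apart here. The text keeps the titles' names, and rows for the targeted kinase genes were not analysed here.

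p53 is held at a low level by Mdm2, a ubiquitin ligase that marks it for destruction, and by Mdm4, a relative of Mdm2 that masks its activating domain. DNA damage and other stresses release p53, which then switches on genes that stop the cell cycle, start cell death, repair DNA, adjust metabolism and, through Mdm2 and the phosphatase gene Ppm1d, switch the response off again. Many of its target genes also answer to other factors, among them FOXO proteins, ATF4, NF-κB and serum-responsive factors, and ERK1 and ERK2 carry growth factor signals to several of these.

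Values are levels on the log2 scale of RMA, a method that corrects background, normalizes between arrays and summarises the probes of a gene. A difference is ERK1/2 null minus wild type on that scale, tested with limma over all 14860 genes, and a gene was called at a Benjamini-Hochberg adjusted p under 0.05. Arrays of the same replicate number deviated together from their group means, so the test was also run with the replicate number as a block. Array medians lay between 6.28 and 6.43 in null and between 6.24 and 6.38 in wild type cultures. Most of the markers did not bear out the endothelial label. Of 14 endothelial markers 11 lay in the dimmest 33.3% of genes. The median level of the 14 was 4.04 in null and 4.05 in wild type cultures. Among the dim ones, the cadherin gene Cdh5 stood at 3.48 and 3.89 and the VEGF receptor gene Kdr at 2.94 and 3.36. Above that range lay Flt1, also a VEGF receptor gene, at 7.6 in null and 6.8 in wild type cultures. Egfl7 (5.8 and 6.0) and Erg (5.6 and 4.6) lay above it too. Flt1 and Erg were called higher in null cultures with the block (limma adjusted p = 0.016 and 0.034). The median level of 8 smooth muscle markers was 5.97 in null and 4.7 in wild type cultures. They ran from Des at 2.94 and 2.91 to Acta2 at 12.58 and 11.40. The median level of 8 fibroblast markers was 10.55 in null and 8.02 in wild type cultures. Their mean level was 9.22 to 11.19 on null and 8.02 to 8.84 on wild type arrays. Of these, 3 were called higher in null cultures (7 with the block), among them Mfap5 and Col3a1, with log2 differences of 2.89 and 2.17. Pdgfra, at 10.15 in null and 10.49 in wild type cultures, went the other way (−0.34, limma adjusted p = 0.74). Among all genes 5.35% were called higher, and 8.92% with the block. Of 8 smooth muscle markers 1 (Mylk, 1.37) was called higher (4 with the block), while 0 of the 14 endothelial and 0 of 7 leukocyte markers were called by limma (1 and 0 at an unadjusted p under 0.05, and 2 and 1 higher with the block). What part the cell content of the cultures has in the differences below was not tested, and in bulk RNA a change in the number of cells of a type and a change in RNA per cell cannot be told apart.

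Among the 32 genes the largest differences were those of Fas, the 3 Gadd45 genes and Btg2, all higher in null cultures. In null cultures 4 of the 32 p53 genes rose, Gadd45g, Gadd45b, Btg2 and Xpc, and 0 fell by limma without the block (8 higher and 2 lower at an unadjusted p under 0.05, which 25.7% of all genes had in either direction). Of all genes tested 5.35% were called higher and 6.12% lower. With the block 9 rose, the same 4 and Fas, Gadd45a, Trp53inp1, Sesn1 and Ddb2, and Mdm2 fell, against 8.92% called higher and 7.76% called lower among all genes. The median log2 difference of the 32 genes was 0.24, beside 0.03 over all genes, and 5 of them differed by at least 1 on the log2 scale, as did 8.20% of all genes. All 3 null arrays lay above all 3 wild type arrays for 10 of the 32 genes and below them for 3, while among all genes 31.0% did not overlap, 16.5% lying wholly above and 14.6% wholly below. Within the pairs of arrays of equal number, 15 genes were higher in null in all 3 pairs and 7 lower (28.3% and 23.3% of all genes). The plot of differences by role shows the size and the interval of each.

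**Figure D1:**
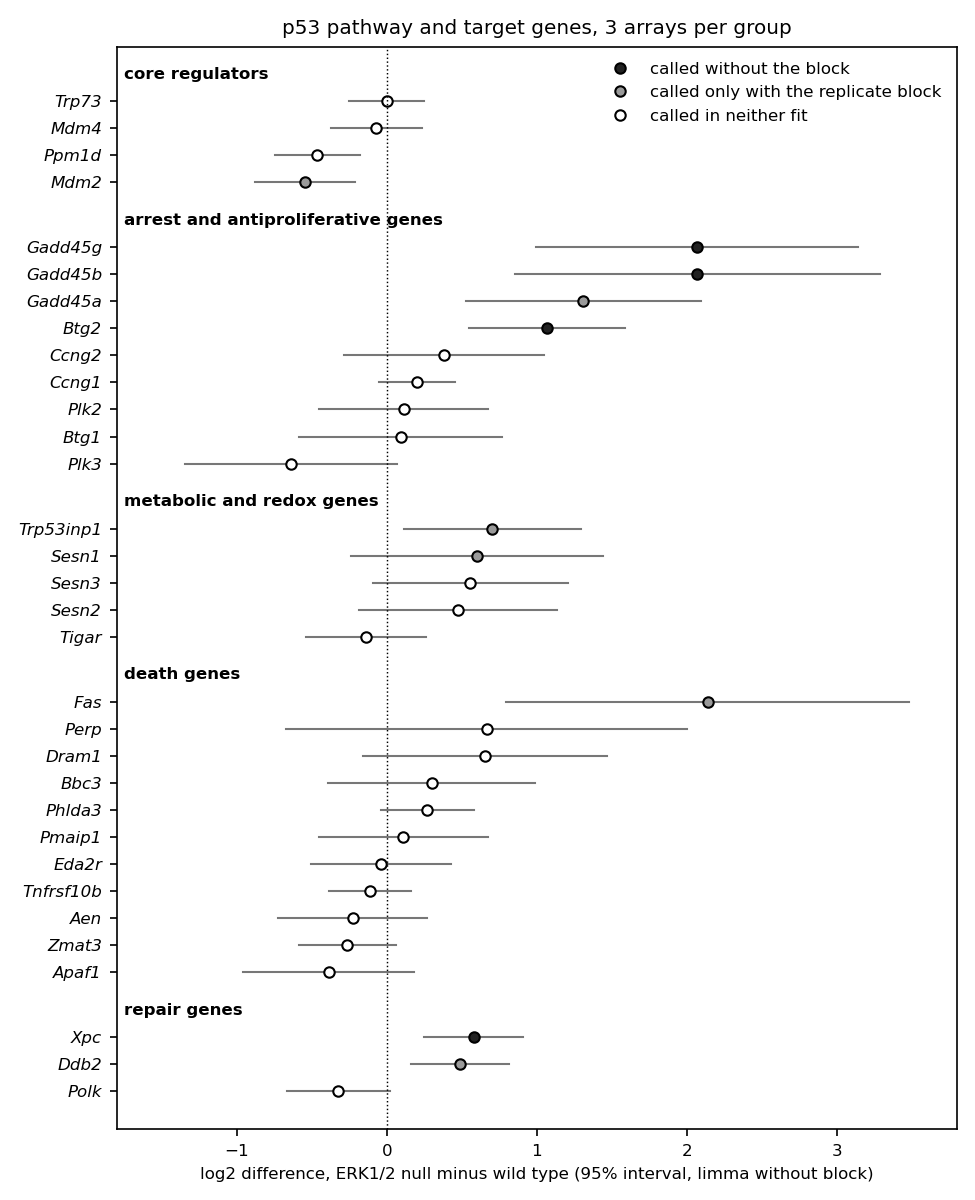
Log2 difference (ERK1/2 null minus wild type, horizontal axis) of each of the 32 p53 genes, by role, with the 95% interval from limma without the block. Black points were called without the block, grey points only with it and white points in neither fit. The 3 Gadd45 genes, Fas and Btg2 lie beyond 1, and Mdm2 lies at −0.54.

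The Gadd45 genes encode 3 related small acidic proteins that bind the replication clamp PCNA and cell cycle kinases and activate a kinase upstream of p38 and JNK. All 3 were higher in null cultures. Gadd45g stood at 8.90, 10.37 and 10.65 in null replicates 1, 2 and 3, and at 8.02, 7.99 and 7.70 in wild type replicates 1, 2 and 3. Null replicate 1 lay closest to the wild type arrays, which were within 0.32 of each other, and the groups did not overlap. The gene rose 4.20-fold (log2 difference 2.07, SE 0.45, limma adjusted p = 0.034), and its difference within pairs was 0.88, 2.38 and 2.95. Gadd45b had levels of 9.61, 8.88 and 10.76 in null and of 8.02, 7.08 and 7.95 in wild type cultures. Replicate 2 was the lowest of each group, and every null array exceeded every wild type array. Its rise was 2.07 (SE 0.51), with a limma adjusted p of 0.049, or 0.009 with the block. Gadd45a, the member of the family best known as a p53 target, stood at 8.29, 8.23 and 8.04 in null and at 7.21, 7.31 and 6.10 in wild type cultures. The null arrays were close together, and wild type replicate 3 lay far below the other two. Its difference of 1.31 (SE 0.33) missed the threshold without the block (limma adjusted p = 0.052) and passed it with the block (0.020). Gadd45g was called in 1 of the 6 fits that left out an array, the one without null replicate 1, and its adjusted p reached 0.118 without null replicate 2. Gadd45b was called only without null replicate 2 (0.047) and reached 0.131 without wild type replicate 2. It also lost the call after subtraction of array medians (0.052), with an intensity trend and robust prior (0.051) and with array weights (0.056). Of the fits that left out an array, Gadd45a was called in the one without wild type replicate 3 (0.028).

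Btg2 and Btg1 encode related antiproliferative proteins that bind the CCR4-NOT complex, which shortens the tails of mRNAs. Btg2 was at 9.03, 8.96 and 8.93 in null cultures, a spread of SD 0.05, and at 8.38, 7.59 and 7.74 in wild type cultures. The groups did not overlap, and wild type replicate 1 was the nearest to the null level. Its rise was 1.07 (SE 0.21, limma adjusted p = 0.027). It was called without wild type replicate 1 (0.008) and in no other fit that left out a single array (up to 0.093, without wild type replicate 3). Btg2 was also called without the arrays numbered 1 of both groups (limma adjusted p = 0.015). Btg1 stood at 11.03, 10.06 and 10.59 in null and at 10.83, 10.32 and 10.26 in wild type cultures. The groups overlapped, the difference was 0.09 (95% interval −0.58 to 0.77, limma adjusted p = 0.89), and its sign turned without null replicate 1 and without wild type replicate 3.

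The bases before the start sites of these genes are shown because the Gadd45 relatives and Btg2 moved the same way, and that of Mdm2 because it moved the other way. Each run is 250 bases upstream of the RefSeq start in GRCm38.p6, read 5′ to 3′ on the strand of the gene. Capitals mark the CCAAT box (CCAAT), the TATA box (TATAAA), the cAMP response element (TGACGTCA), the C/EBP-ATF element (TGATGNAA) and the p53 decamer by its published consensus (the unit that occurs in pairs in a full p53 site), all searched on both strands.
Gadd45a, chr6:67037408-67037657, minus strand: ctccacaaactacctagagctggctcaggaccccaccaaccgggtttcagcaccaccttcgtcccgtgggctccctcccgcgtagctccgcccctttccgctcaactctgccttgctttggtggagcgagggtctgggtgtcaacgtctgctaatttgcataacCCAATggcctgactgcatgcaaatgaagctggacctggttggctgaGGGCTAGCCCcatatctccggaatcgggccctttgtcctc
Gadd45b, chr10:80929841-80930090, plus strand: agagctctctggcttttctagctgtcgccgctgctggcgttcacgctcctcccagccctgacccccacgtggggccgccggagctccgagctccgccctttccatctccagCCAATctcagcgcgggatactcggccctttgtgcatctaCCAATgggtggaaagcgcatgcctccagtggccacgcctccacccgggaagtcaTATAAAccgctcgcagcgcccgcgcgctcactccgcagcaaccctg
Gadd45g, chr13:51846425-51846674, plus strand: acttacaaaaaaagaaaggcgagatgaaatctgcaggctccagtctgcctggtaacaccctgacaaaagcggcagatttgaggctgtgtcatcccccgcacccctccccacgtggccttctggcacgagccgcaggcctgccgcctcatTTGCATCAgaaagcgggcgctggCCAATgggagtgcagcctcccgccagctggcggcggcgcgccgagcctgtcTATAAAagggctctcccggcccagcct
Btg2, chr1:134079156-134079405, minus strand: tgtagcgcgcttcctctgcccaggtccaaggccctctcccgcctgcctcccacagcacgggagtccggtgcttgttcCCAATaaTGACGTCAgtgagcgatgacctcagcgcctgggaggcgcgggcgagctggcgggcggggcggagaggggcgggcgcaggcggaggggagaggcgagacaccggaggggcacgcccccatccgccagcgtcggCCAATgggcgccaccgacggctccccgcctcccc
Mdm2, chr10:117710759-117711008, minus strand: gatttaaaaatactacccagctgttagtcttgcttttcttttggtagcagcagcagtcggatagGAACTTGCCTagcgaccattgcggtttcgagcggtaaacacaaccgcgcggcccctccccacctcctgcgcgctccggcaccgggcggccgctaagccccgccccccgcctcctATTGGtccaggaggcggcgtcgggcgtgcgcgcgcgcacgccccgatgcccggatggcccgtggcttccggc
A CCAAT box lay in all 5 windows. In Gadd45b its first bases were 139 and 100 bases before the start, in Gadd45g 78, in Gadd45a 86, in Btg2 173 and 34, and in Mdm2 72 on the opposite strand. Gadd45b and Gadd45g also held a TATA box, and Gadd45g the C/EBP-ATF element on the opposite strand, where ATF4 is known to bind such elements in stress genes. Btg2 held a cAMP response element, which began 166 bases before the start. A p53 decamer lay 40 bases before the start in Gadd45a and 186 bases before it in Mdm2. The known p53-responsive promoter of Mdm2 lies inside the gene and so outside this window. Whether p53 acts through either of these matches was not tested.

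Of the 32 p53 genes 25 had such a window, and the same letters were counted in the windows of 11894 measured genes. Xpc, Ddb2 and Trp53inp1 were among those without a window. For a gene with several windows the first listed was used. The CCAAT box was in 14 of the 25 (56.0%, against 35.9% of all windows) and the p53 decamer in 5 (20.0% against 6.2%), namely Ccng1, Gadd45a, Mdm2, Polk and Ppm1d. The cAMP response element was in 3 (12.0% against 2.1%), Btg2, Plk2 and Ppm1d, and the TATA box in 4 (16.0% against 10.7%). The FOXO motif GTAAACA was in 3 (12.0% against 2.6%), Btg1, Eda2r and Mdm2, the AP-1 motif TGANTCA in 2 (8.0% against 6.0%), Fas and Mdm4, and the C/EBP-ATF element in Gadd45g alone (4.0% against 2.6%). These shares rest on few windows and were not tested. Of the 5 genes with a p53 decamer limma called 0 without the block, beside 11.5% of all genes. An unadjusted p under 0.05 was found for 3 of the 5, beside 25.7% of all genes. With the block 2 were called, Gadd45a higher and Mdm2 lower, beside 16.7% of all genes.

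Of the 4 core regulators measured limma called 0 without the block (2 at an unadjusted p under 0.05), and with it Mdm2 fell. Mdm2 had levels of 10.12, 9.72 and 9.93 in null and 10.58, 10.40 and 10.42 in wild type cultures. Every null array lay below every wild type array. The difference was −0.54 (SE 0.14), with a limma adjusted p of 0.056 that became 0.038 with the block, and the differences within pairs were −0.46, −0.68 and −0.49. Ppm1d, the phosphatase gene that p53 induces and that removes activating phosphates from p53 and its kinases, stood at 7.57, 7.55 and 7.50 in null and at 8.18, 7.94 and 7.90 in wild type cultures. The null arrays again lay wholly below, with a spread of SD 0.03. Its difference of −0.46 (SE 0.12) was not called (limma adjusted p = 0.055, and 0.060 with the block), but it was called in 4 of 15 alternatives, quantile normalization among them. Mdm4 was at 7.84, 7.81 and 8.05 in null and at 7.82, 8.05 and 8.04 in wild type cultures, so that the groups overlapped (difference −0.07, 95% interval −0.37 to 0.24). Trp73, a relative of p53, had a level of 4.36 in both groups, in the dimmest 33.3% of genes, where a change would hardly show.

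**Figure D2:**
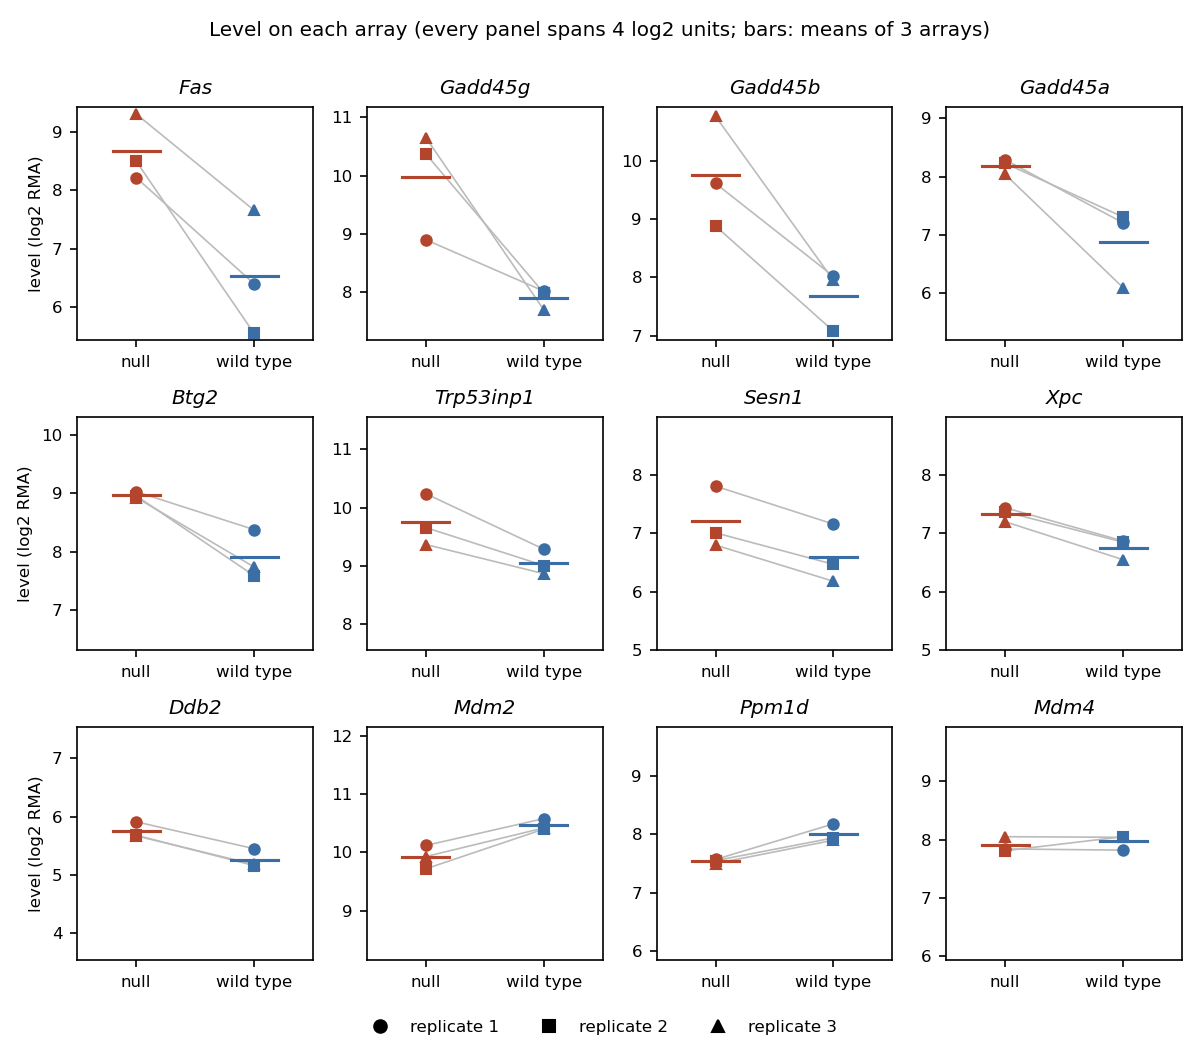
Level (log2 RMA, vertical axis) on each array in null (left) and wild type (right) cultures of the 10 p53 genes called with or without the block, and of Ppm1d and Mdm4. Grey lines join arrays of the same replicate number and bars are the means of 3 arrays. Fas, Gadd45b and Gadd45g differ by about 2 on the log2 scale, Sesn1 keeps a like gap in each pair at different levels, and Mdm2 and Ppm1d are lower in null.

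Among the death genes Fas stood apart. It encodes a death receptor on the cell surface, and it had levels of 8.22, 8.50 and 9.31 in null and of 6.40, 5.55 and 7.66 in wild type cultures. The lowest null array exceeded the highest wild type array, while the wild type arrays spread over 2.11. The difference of 2.14 (SE 0.56, 4.40-fold) ranked 110th from the top among 14860 genes and missed the threshold without the block (limma adjusted p = 0.059). With the block it passed (0.009), and the gene was higher in null by 1.82, 2.95 and 1.65 within the pairs. It was also called without wild type replicate 3 (0.031).

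The remaining 10 death genes were not called in either fit, and in the whole group of 11 limma without the block called 0 (1 at an unadjusted p under 0.05). Their differences lay between −0.39 and 0.67. Bbc3 (PUMA) and Pmaip1 (NOXA), BH3-only proteins that p53 induces to start mitochondrial cell death, differed by 0.30 (95% interval −0.39 to 0.99) and by 0.11 (−0.45 to 0.67, with a sign that turned to −0.004 after quantile normalization). Tnfrsf10b, the mouse receptor for the death ligand TRAIL, differed by −0.11 (−0.39 to 0.16), and Eda2r, a TNF receptor family member, by −0.04 (−0.51 to 0.43). Zmat3, an RNA-binding zinc finger gene, was lower on all 3 null arrays (9.27, 9.48 and 9.07, against 9.50, 9.55 and 9.56 in wild type), but its difference of −0.26 was not called (limma adjusted p = 0.29). Phlda3, whose product competes with the kinase Akt for membrane lipids, was higher on all 3 null arrays (10.65, 10.52 and 10.47, against 10.22, 10.46 and 10.14 in wild type), with a difference of 0.27 (limma adjusted p = 0.25). Perp, which encodes a membrane protein of cell junctions, had the widest spread. Null replicate 1 stood at 10.31 and the other null arrays at 8.48 and 8.60, against 9.11, 8.41 and 7.88 in wild type, and the difference of 0.67 became 0.08 without null replicate 1. Dram1, a lysosomal regulator of autophagy, Apaf1, the scaffold of the apoptosome, and the nuclease gene Aen differed by 0.65, −0.39 and −0.23 (limma adjusted p = 0.29, 0.38 and 0.57).

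The DNA repair genes Xpc and Ddb2 differed little in size but evenly. Both act in nucleotide excision repair, where Ddb2 and Xpc recognise damaged bases. Xpc stood at 7.44, 7.37 and 7.20 in null and at 6.87, 6.85 and 6.55 in wild type cultures, and rose by 0.58 (SE 0.14, limma adjusted p = 0.045). The groups did not overlap, and the differences within pairs were 0.57, 0.52 and 0.65. The call was lost whichever array was left out (limma adjusted p from 0.071 to 0.140), with either other scaling of the arrays (quantile or median), and with an intensity trend and robust prior (0.054). Ddb2 had levels of 5.91, 5.68 and 5.67 in null and of 5.45, 5.16 and 5.18 in wild type cultures. It too showed no overlap, and its difference of 0.49 (SE 0.14) passed only with the block (limma adjusted p = 0.072, 0.043 with the block, and 0.073 with the block once array medians were subtracted). Polk, a polymerase that copies past lesions, differed by −0.32 (limma adjusted p = 0.22) and was lower in null within all 3 pairs.

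Of the metabolic and redox genes limma called 0 of 5 without the block (1 at an unadjusted p under 0.05), and Trp53inp1 and Sesn1 rose with it. Trp53inp1, a stress-induced nuclear protein gene of autophagy and cell death, was at 10.24, 9.66 and 9.37 in null and at 9.29, 9.01 and 8.87 in wild type cultures. The groups did not overlap, and replicate 1 was highest in both. Its difference was 0.70 (SE 0.24, limma adjusted p = 0.13, 0.028 with the block, and 0.051 with the block once array medians were subtracted). The sestrin genes Sesn1, Sesn2 and Sesn3 encode stress proteins that restrain the growth kinase mTORC1. Sesn1 stood at 7.81, 7.01 and 6.80 in null and at 7.16, 6.47 and 6.18 in wild type cultures. The groups overlapped, but the order of the replicates was the same in both, and the differences within pairs were 0.65, 0.54 and 0.61. The mean difference of 0.60 had an SE of 0.35 without the block and 0.11 with it, and the limma adjusted p was 0.35 and 0.026. Sesn2, known also as an ATF4 target, was at 8.53, 8.50 and 8.07 in null and at 8.45, 7.77 and 7.47 in wild type cultures, and differed by 0.09, 0.73 and 0.61 within the pairs. Sesn3, known also as a FOXO target, was at 8.78, 9.07 and 8.94 in null and at 8.89, 8.39 and 7.83 in wild type cultures, and differed by −0.12, 0.68 and 1.11. The groups overlapped for both genes, and neither was called in either fit (mean differences 0.48 and 0.56, limma adjusted p = 0.35 and 0.26, and 0.12 and 0.20 with the block). Tigar, a phosphatase that lowers glycolysis, differed by −0.14 (95% interval −0.54 to 0.26).

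Of the other arrest genes the cyclin G genes and the polo-like kinase genes were not called. Ccng1, whose product brings a phosphatase to Mdm2, stood at 12.60, 12.56 and 12.52 in null and at 12.27, 12.45 and 12.35 in wild type cultures. The null arrays lay wholly above the wild type arrays by a narrow margin, and the difference of 0.20 (limma adjusted p = 0.30) turned to −0.08 after quantile normalization. Ccng2, an atypical cyclin gene that FOXO factors also induce, was at 7.80, 8.14 and 8.62 in null and at 7.38, 7.87 and 8.15 in wild type cultures. Here the groups overlapped while each pair was higher in null, by 0.42, 0.27 and 0.46 (limma adjusted p = 0.46, and 0.091 with the block). Plk2 was at 10.05, 10.11 and 10.82 in null and at 10.42, 10.17 and 10.06 in wild type cultures, with a difference of 0.11 that turned to −0.13 without null replicate 3. Plk3 was at 6.32, 6.58 and 7.11 in null and at 6.86, 7.77 and 7.31 in wild type cultures. It was lower in null in every pair, with the lowest difference among the 32 genes (−0.64, 95% interval −1.35 to 0.07, limma adjusted p = 0.24). Whether the relatives within these families differed from each other was not tested.

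**Figure D3:**
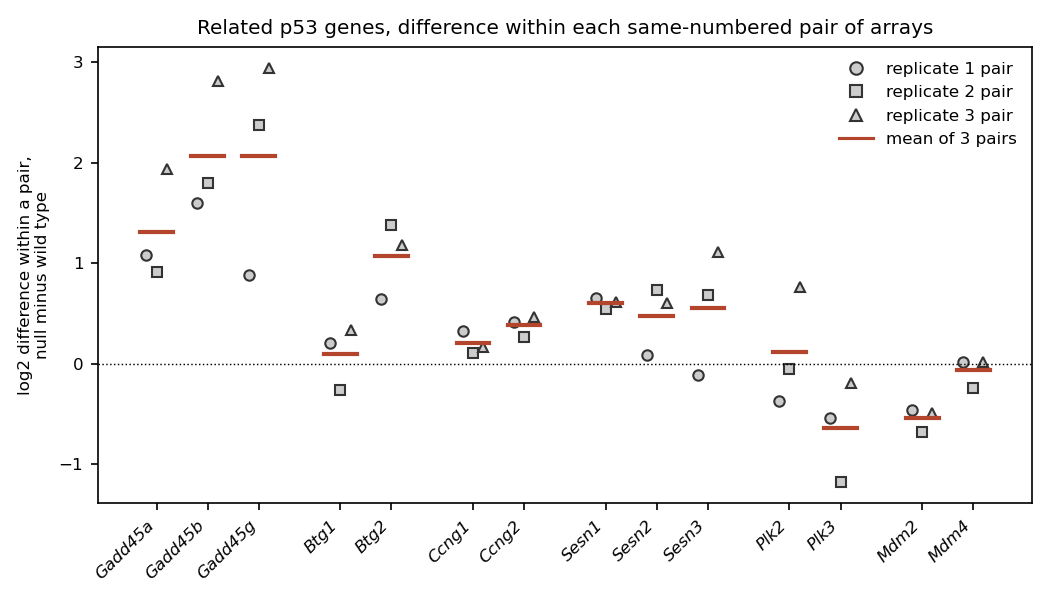
Log2 difference (null minus wild type, vertical axis) within each pair of arrays of the same replicate number, for related p53 genes. Symbols are the 3 pairs and red bars their mean. Every Gadd45 pair lies above 0, the Sesn1 pairs lie within 0.11 of each other, and every Mdm2 and Plk3 pair lies below 0.

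Over the 22 p53 genes called in neither fit, 16 had a 95% interval that stayed between −1 and 1, so that a difference of 1 on the log2 scale lay outside it for each of these taken singly. The median SD of the 32 genes was 0.22 over null and 0.31 over wild type arrays. Only Trp73 lay in the dimmest 33.3% of genes.

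Genes around p53 outside this set were read from lists written by name. Of 17 further p53 targets measured, 4 rose, 1 fell and 12 were not called, with a median difference of 0.19, beside 5.35% called higher and 6.12% lower among all genes. With the block 5 rose and 2 fell, beside 8.92% called higher and 7.76% lower among all genes. Tap1, a peptide transporter gene (1.34), and Epha2, an ephrin receptor gene (−0.86), were the additional ones. Cdkn1a, which encodes the kinase inhibitor p21 and is the best known p53 target, stood at 10.96, 10.88 and 11.09 in null and at 10.81, 10.75 and 10.63 in wild type cultures. The null arrays were all higher, and the difference of 0.25 (95% interval −0.03 to 0.52) was not called (limma adjusted p = 0.24, and 0.27 with the block). Ephx1, a detoxifying epoxide hydrolase gene, rose by 1.17 and the death agonist gene Bid by 1.14 (limma adjusted p = 0.004 and 0.022). Ckap2, which encodes a protein of the mitotic spindle, fell by 1.89 (limma adjusted p = 0.004). Of 14 proteins that modify or bind p53, 1 gene fell, Twist1, a factor that restrains p53 (−0.68, limma adjusted p = 0.029), and limma called 0 higher, with 2 of the 14 at an unadjusted p under 0.05 in either direction and a median of 0.03.

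Of 16 measured kinases and adaptors that report DNA damage to p53, 11 fell (6.12% of all genes did) and 5 were not called. Of these 5, Trp53bp1 and Rad17 differed by 0.03 and −0.05. Chek2, Nbn and Prkdc differed by −1.29, −0.36 and −0.32, with every null array below every wild type array. With the block 11 fell too (7.76% of all genes did), Chek2 being gained (limma adjusted p = 0.027) and Hus1 lost (0.059). Limma called 0 higher, with a median of −1.09 and 13 at an unadjusted p under 0.05, all of them lower. Clspn and Brca1, which act at stalled replication forks and in break repair, fell by 2.36 and 2.20 (limma adjusted p = 0.002 and 0.001). Several genes of this list are made mainly in dividing cells. Beside them, 11 of 12 measured proliferation genes that p53 is known to repress fell (12 with the block), with a median of −2.25, and the proliferation marker Mki67 had levels of 7.05, 7.22 and 6.90 in null and of 9.79, 9.82 and 9.84 in wild type cultures. Proliferation genes moved with the groups, and their part in the p53 gene differences was not tested. Of 11 FOXO target genes outside the set 1 rose (4 with the block), Klf15, by 1.81. Of 9 integrated stress response genes 3 rose (5 with the block), among them Atf3 and Trib3 by 2.18 and 1.16. Beside these, 5.35% of all genes were called higher, and 8.92% with the block. Limma called 0 lower in both lists, and 3 of the 11 and 5 of the 9 had an unadjusted p under 0.05.

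**Figure D4:**
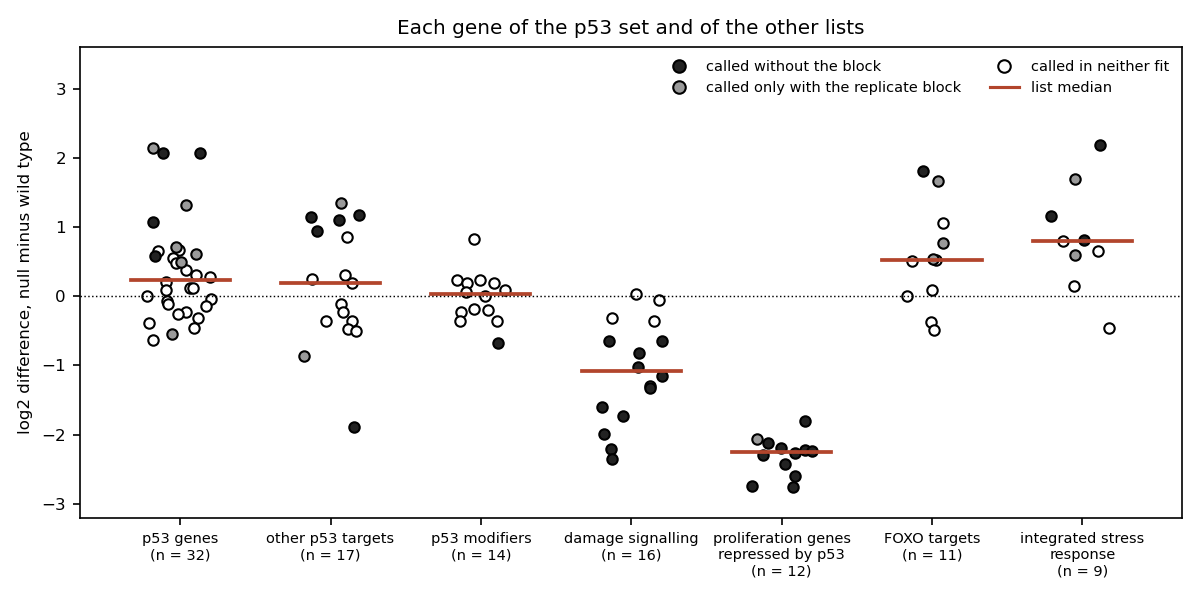
Log2 difference (null minus wild type, vertical axis) of each p53 gene and of each gene of 6 other lists, with list medians as red bars. Black points were called without the block, grey points only with it and white points in neither fit. The p53 genes spread on both sides of 0 with a median of 0.24, and the proliferation genes lie together near −2.25.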

How the data were processed

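The authors deposited 1 log2 value per probe set and array, made with RMA per the submitters' processing notes, with settings not given in the sources used here. Their range set the scale as log2 (0.74 to 14.32, with 0 missing). Array values have no depth, and 3 arrays per group limit the precision. Of 16775 rows, 14996 named 1 gene, 1019 named several and 760 were not listed in the platform annotation. The row with the highest mean stood for a gene with several rows (135 genes), which left 14860 genes. Names came from the GRCm38.p6 gene table.

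Groups came from the titles, which call the samples biological replicates. Differences were tested with limma 3.58.1 under R 4.3.3, by lmFit and eBayes, 2-sided, with Benjamini-Hochberg adjustment over 14860 genes. No label says what a replicate number shares. Deviations from group means correlated at 0.57, 0.35 and 0.45 across genes between arrays numbered 1, 2 and 3, so the numbers were taken as pairs. Where the block changes a call, blocked values are given for the p53 genes and blocked counts for the other lists. The procedure was tested on simulated data. Intervals are 95% and not adjusted.

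The p53 genes, roles and lists were chosen with earlier results of these data known. Arrays are given one by one for genes called in either fit, for the Mdm genes and for the Sesn, Gadd45, Btg, Ccng and Plk relatives. Further genes serve as examples of ranges, chosen after their values were seen. Of other lists Cdkn1a, Mki67 and up to 2 called genes per direction are named, with some uncalled genes and some whose call the block changed. Promoter sequences are from RefSeq. Alternatives were other normalizations, a filter on level, other variance models, array weights, the mean of a gene's rows, the block, a stricter threshold and leaving out arrays. The block with array medians subtracted was added after the data were seen.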

Additional observations from a re-analysis of the deposited data

How the results depend on the processing

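The 4 p53 genes called higher became 9 with the replicate block, 7 with the block and array medians subtracted (without Ddb2 and Trp53inp1), 2 with an intensity trend and robust prior, 2 without the arrays numbered 1 of both groups, 0 at an adjusted p under 0.01, and 0 to 2 when single arrays were left out. They numbered 3 to 6 after quantile normalization, subtraction of array medians, the filter on level, array weights and averaging of rows. The 0 called lower became 2 after quantile normalization and with the filter on level (Mdm2 and Ppm1d), 1 after subtraction of array medians (Ppm1d), 1 with array weights and 1 with the block (Mdm2), and 2 with the block and array medians subtracted (Mdm2 and Ppm1d). The causes were not tested, except that fewer arrays leave fewer degrees of freedom. The block changed no call of a p53 gene other than those named in the report.

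Of 32 genes 25 kept the sign of their difference under every alternative run. The other 7 were uncalled throughout. After quantile normalization the differences of Trp73, Ccng1 and Pmaip1 were −0.084, −0.076 and −0.004, and that of Trp73 was −0.066 after subtraction of array medians, with and without the block. Pmaip1 reached −0.050 without the arrays numbered 1. When single arrays were left out, Trp73 ranged from −0.033 to 0.037, Btg1 from −0.14 to 0.35, Plk2 from −0.13 to 0.25, Tigar from −0.28 to 0.002, Pmaip1 from −0.033 to 0.303 and Eda2r from −0.223 to 0.065. RMA compresses differences of dim rows, which limits Trp73 most.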
